A study of Mus musculus with 11 samples.

Results

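The comparison set every heterozygous library against wild type: 8 of the 11 libraries of the series came from mice that lacked a copy of Csf1r, of Csf2 or of both, and they were taken as one side against the 3 wild-type libraries. The members were set by genotype label, with earlier results of these data known. They comprised 3 Csf1r+/- libraries (named Csf1r_het), 3 Csf2+/- libraries (Csf2_het) and 2 libraries of the double genotype Csf1r+/-; Csf2+/- (Dhet), and the other side held 3 wild-type libraries (WT), all on the C57BL/6 background. Cerebral microglia positive for Tmem119 were sorted and their RNA sequenced in bulk. The mice were 21 months old except Csf1r_het replicate 1 (20 months), Csf1r_het replicate 2 and Dhet replicate 2 (24 months each). Whether each library came from 1 animal or from a pool, and the sex of the animals, were not given in the sources used here, so p-values measure the spread between these libraries. Of 14739 genes in the deposited table, 13223 had a mean normalized count (a read count divided by a size factor for the library) of at least 10 and were compared.

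Microglia are the resident macrophages of the brain. They depend for survival on CSF-1 and IL-34, which signal through the receptor tyrosine kinase encoded by Csf1r. CSF-2, also called GM-CSF, is encoded by Csf2 and signals through a receptor built from the chains of Csf2ra and Csf2rb, which activates JAK2 and STAT5. Loss of a CSF1R copy causes a leukoencephalopathy in humans, and the series asks how Csf1r and Csf2 copy number bear on aged microglia.

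Between 21037819 and 53081638 reads per library were assigned to genes. Csf1r_het replicate 2 stood apart, with 58.8% of its normalized counts in haemoglobin genes and 15.6% of genes at 0, against 16.1% to 40.2% and 4.98% to 9.88% in the other 10 libraries. Dhet replicate 2 held 4.02 normalized counts of Xist, which the inactive X chromosome expresses, against at least 3011 in the others. The 8 microglia markers were all measured, and their summed level was 247051 to 516607 in the heterozygous libraries (median 353326) and 94903 to 249185 in the WT libraries. All 8 had a positive log2 fold change, with a median of 1.13. The 8 monocyte markers (Ccr2, Ly6c2, Plac8, Chil3, F13a1, Ifitm6, Gpr141 and Fn1) were above 0 in every library. Their sum was 55760, 51151 and 69925 in Csf1r_het, 14973, 22241 and 20691 in Csf2_het and 76502 and 66300 in Dhet, against 105716, 201730 and 86693 in WT. This sum was thus lower in every heterozygous library than in every WT library, and lowest in Csf2_het. Marker by marker, 1 of the 8 had no overlap with WT on the lower side, against 4.74% of all genes tested. Chil3, the most abundant, had 35970 and 29517 in Dhet, against 26426, 16765.5 and 40709 in WT. In such bulk samples fewer cells of a type and less RNA per cell cannot be told apart.

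A further library measure moved with genotype. Among protein-coding genes, the 2874 with the shortest exonic sequence (up to 2623 bases) and the 2874 with the longest (from 6643 bases) were compared by their median log2 deviation from each gene's mean over all libraries. Short minus long was 0.51, 0.039 and 0.40 in Csf1r_het, 0.083, 0.086 and 0.11 in Csf2_het and -0.30 and 0.0070 in Dhet, against -0.28, -0.23 and -0.23 in WT. Short genes were thus relatively higher in 7 of the 8 heterozygous libraries than in any WT library, and Dhet replicate 1 lay below all 3 WT libraries. Fits with this trend removed are given beside the counts they touch.

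**Figure D1:**
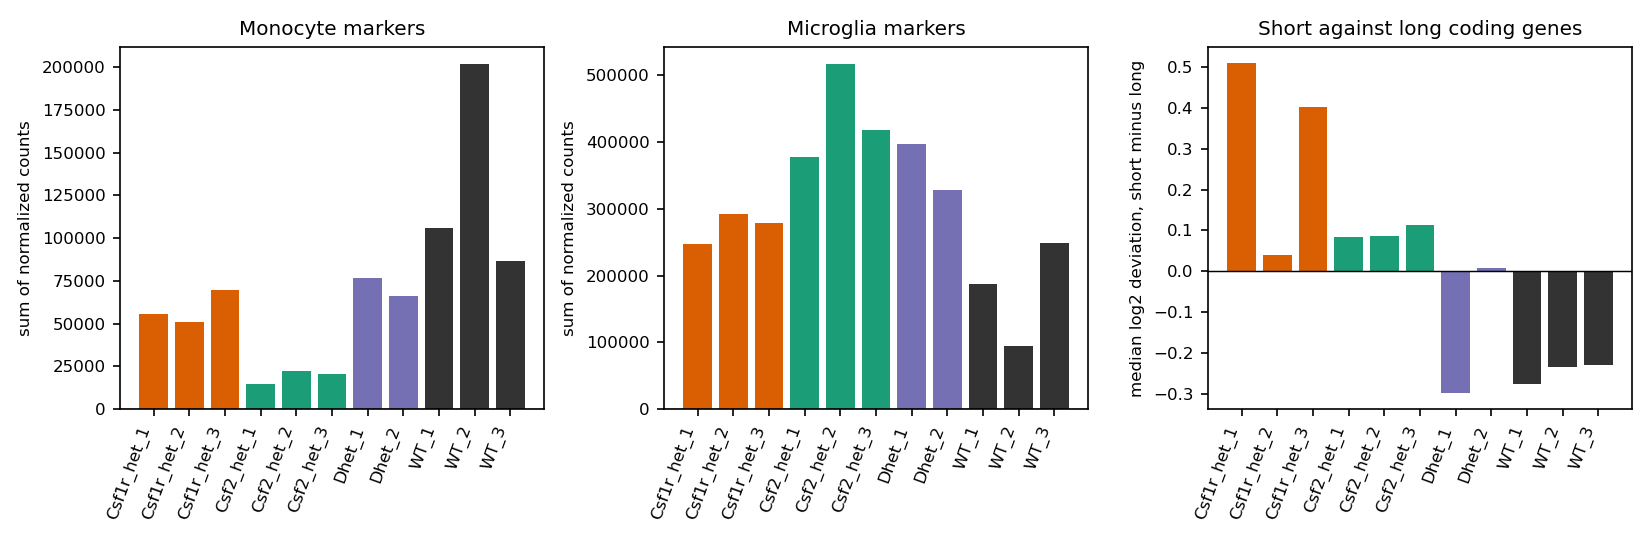
Library measures, with heterozygous libraries left of WT. The bars give the sum of normalized counts of 8 monocyte markers, the same for 8 microglia markers, and the median log2 deviation of short minus that of long protein-coding genes. Monocyte sums reach 76502 in the heterozygous libraries and start at 86693 in WT, and the length measure is between -0.28 and -0.23 in the 3 WT libraries.

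The targeted gene was read first. Csf1r (ENSMUSG00000024621.15, chromosome 18, 61105572 to 61132149, forward strand, mm10) had normalized counts of 17017, 40567 and 24023 in Csf1r_het, 53873, 58211 and 66762 in Csf2_het and 40151 and 30254 in Dhet, against 93319, 41261 and 63538 in WT. All 5 libraries with a single intact Csf1r copy lay below the 3 WT libraries, the nearest being Csf1r_het replicate 2 and WT replicate 2, while the Csf2_het libraries, which keep both copies, lay within the WT range. In the comparison of all 8 libraries with WT Csf1r did not pass (log2 fold change -0.72, SE 0.44, limma adjusted p = 0.43), and by genotype its log2 fold change was -1.29 in Csf1r_het, -0.07 in Csf2_het and -0.84 in Dhet. Csf2 itself was not analysed here.

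Heterozygous against WT asks which changes the 3 genotypes had in common. Limma on log2(normalized count + 1), with the 8 libraries as 1 group, called 357 genes at an adjusted p of 0.05, or 2.7% of those tested. Of these, 98 rose (0.741% of genes tested) and 259 fell (1.96%). DESeq2 on reads recovered from the normalized counts called 421 higher and 550 lower, and edgeR 74 higher and 309 lower. The median log2 fold change over all genes tested was -0.07. Because spread between genotypes counted as error in this fit, a call required the genotypes to lie close together relative to their distance from WT. Without regard to any test, 901 genes (6.81%) had all 8 heterozygous values on one side of all 3 WT values, 274 of them above (2.07%) and 627 below (4.74%). Of the 357 called genes, 329 were among these. The rule of no overlap has a sharp edge. Mettl26 was just inside it, with 788.3 as its lowest heterozygous and 788.1 as its highest WT value, and Katnal1 just outside, with 109.002 and 109.01. On the lower side Tagln2 (highest heterozygous value 5882, lowest WT value 5887) was just inside and Top2b (1023 and 1022) just outside.

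Called genes were mostly protein coding, 351 of 357, or 98.3% against 86.9% of genes tested. The exonic length of the coding genes had a median of 2124 bases among those that rose and 4839 bases among those that fell, against 4281 bases over all coding genes tested. With the length trend removed from each library, an alternative chosen after the data were seen, limma called 108 genes higher and 278 lower, and 303 of the 357 calls were among them in the same direction. The level also differed, since the median normalized count was 767 for genes that rose and 1326 for genes that fell, against 386 for all genes tested.

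The log2 fold change had the same sign in all 3 genotypes for each of the 357 called genes, which the pooled fit favours, and in 288 of them each genotype's change was over 1 on the log2 scale. Among genes that fell the median log2 fold change was -1.62 in Csf1r_het, -2.02 in Csf2_het and -1.55 in Dhet. Among genes that rose it was 1.80 in Csf1r_het, 1.78 in Csf2_het and 1.24 in Dhet. These comparisons share the WT libraries. In a fit of the 4 groups, 130 of the 357 passed in Csf1r_het alone against WT, 276 in Csf2_het and 55 in Dhet, where the background was 1.32%, 3.65% and 0.529% of genes tested. The 357 genes were picked from the same values of the same libraries, so passing more often than this background follows from the choice. In all 3 comparisons 29 genes passed, and all 29 were lower. In none of the 3 did 70 pass, 33 of them higher and 37 lower. The 29 included the integrin chain Itgal, the hyaluronan receptor Cd44, the transcription factor Klf2 and the Src-family kinase Fgr, named after their values were seen. An F test over the 3 heterozygous genotypes called 5 genes of 13223 (0.0378%), and 0 of the 357 common genes were among them. At an unadjusted p under 0.05 that test marked 66 of the 259 genes that fell and 5 of the 98 that rose, against 1043 of all genes tested. DESeq2, in a likelihood ratio test, called 126 genes among the genotypes, and edgeR called 4.

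Among genes that fell, those with the widest gap between the sides were Fcrl5, Dpep2, Adcy4, Gcnt2, Cd300e, Adgre5, Myo1g, Fam43a, Xdh and Flna. The gap is the log2 distance between the highest heterozygous and the lowest WT value. Gcnt2 (ENSMUSG00000021360.16, chromosome 13, 40859754 to 40960892, forward strand), an enzyme that branches glycan chains of the I antigen, had normalized counts of 607, 403 and 474 in Csf1r_het, 335, 320.3 and 556 in Csf2_het and 492 and 411 in Dhet, against 2955, 2698 and 2236 in WT. The 8 heterozygous values were at most 607 and the 3 WT values at least 2236, a 5.93-fold difference (log2 fold change -2.57, SE 0.28, limma adjusted p = 0.001). Adgre5 (ENSMUSG00000002885.14, chromosome 8, 83723251 to 83741326, reverse strand), the leukocyte adhesion receptor CD97, had 2690, 2664 and 1915 in Csf1r_het, 974, 1131 and 1021 in Csf2_het and 2401 and 2032 in Dhet, against 19359, 15117 and 9063 in WT. It was 8.06-fold lower (log2 fold change -3.01, SE 0.37, limma adjusted p = 0.00199) and lowest in the 3 Csf2_het libraries. Myo1g, a class I myosin of blood cells, had 1086, 1142 and 1348 in Csf1r_het, 479.8, 688 and 1215 in Csf2_het and 1010 and 1137 in Dhet, against 7637, 9137 and 4415 in WT, and fell 6.97-fold (log2 fold change -2.80, SE 0.33, limma adjusted p = 0.00147). Flna, filamin A, which cross-links actin, had 1710 to 3300 (median 2691) in the 8 heterozygous libraries, against 9750 to 18576 in the 3 WT libraries (log2 fold change -2.40, SE 0.27, limma adjusted p = 0.0013). Its changes by genotype were -2.23 in Csf1r_het, -2.81 in Csf2_het and -2.05 in Dhet.

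Cd300e, an activating receptor of monocytes, had normalized counts of 1444, 1467 and 829.6 in Csf1r_het, 950.2, 557 and 674 in Csf2_het and 672 and 296 in Dhet, against 5557, 5254 and 6740 in WT. It fell 7.54-fold (log2 fold change -2.91, SE 0.41, limma adjusted p = 0.00395). Dpep2, a dipeptidase that cleaves leukotriene D4, had 35.3 to 461 (median 201) in the 8 heterozygous libraries, against 2101 to 3605 in the 3 WT libraries and fell 15.1-fold (log2 fold change -3.92, SE 0.58, limma adjusted p = 0.00482). Fcrl5, an Fc receptor-like gene of the B lineage, averaged 33.4 ± 19.1 in the heterozygous libraries and 417 ± 134 in the WT libraries (SD, n = 8 and 3) (log2 fold change -3.78, SE 0.70, limma adjusted p = 0.0125), with the widest gap of the 10 genes at 2.22. Xdh, xanthine dehydrogenase, had 79.0 to 500.3 (median 307) in the 8 heterozygous libraries, against 1504 to 3403 in the 3 WT libraries (log2 fold change -2.90, SE 0.51, limma adjusted p = 0.0105). Fam43a averaged 131 ± 33.1 in the heterozygous libraries and 669.8 ± 215 in the WT libraries (SD, n = 8 and 3) (log2 fold change -2.35, SE 0.41, limma adjusted p = 0.0105). Adcy4, an adenylate cyclase, had 10.6, 11.9 and 11.6 in Csf1r_het, 0, 0 and 0 in Csf2_het and 0 and 0 in Dhet, against 263, 301 and 48.2 in WT. Its fitted log2 fold change (-5.94, SE 1.33, limma adjusted p = 0.029) depends on the pseudocount, since 5 heterozygous libraries were at 0. Several of these genes are also known in monocytes, whose marker sum did not overlap between the sides either, and the part of such cells in their fall was not tested.

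**Figure D2:**
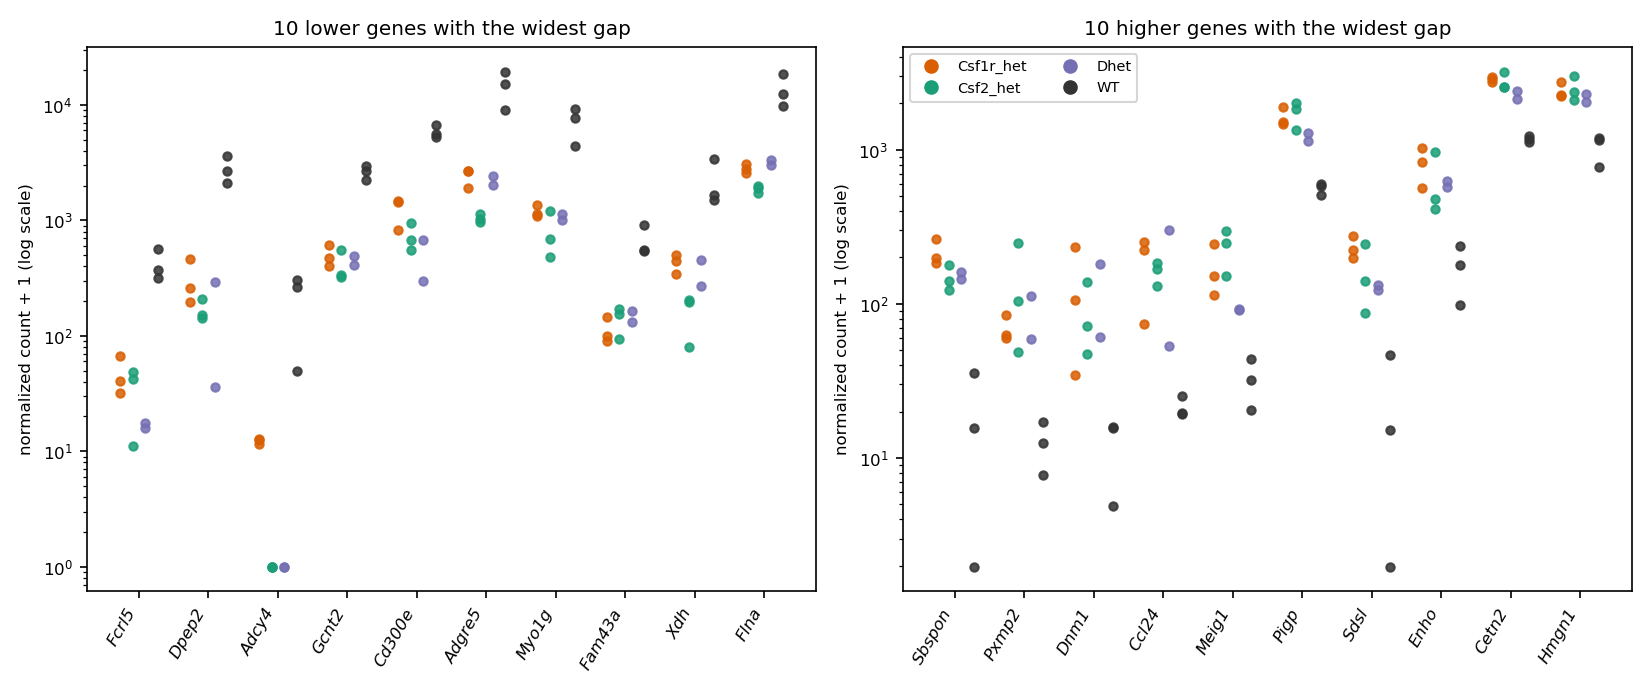
Normalized count + 1 (log axis) in every library for the 10 lower and the 10 higher called genes with the widest gap between the sides. Each point is 1 library, with the 3 heterozygous genotypes left of WT for each gene. The heterozygous points of Gcnt2 end at 607 and the WT points start at 2236, and for Cetn2 the heterozygous points start at 2138 while WT ends at 1236.

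Among genes that rose, the same rule named Sbspon, Pxmp2, Dnm1, Ccl24, Meig1, Pigp, Sdsl, Enho, Cetn2 and Hmgn1. Sbspon (ENSMUSG00000032719.4, chromosome 1, 15853862 to 15892722, reverse strand), a matrix protein with somatomedin B and thrombospondin domains, had normalized counts of 182, 264 and 197 in Csf1r_het, 139, 177 and 123 in Csf2_het and 143 and 160.4 in Dhet, against 14.8, 0.971 and 34.4 in WT. It was 16.4-fold higher (log2 fold change 4.04, SE 0.75, limma adjusted p = 0.0127), and all 8 heterozygous values lay above WT. The size rests on WT replicate 2, which held 1 read: the log2 fold change was 2.84 without it and 4.93 without WT replicate 3, 3.11 with a pseudocount of 8 and 3.45 in edgeR and in DESeq2. Cetn2, the centriole protein centrin-2, had 2892, 2980 and 2746 in Csf1r_het, 3205, 2543 and 2545 in Csf2_het and 2138 and 2403 in Dhet, against 1236, 1117 and 1167 in WT. The spread was small on both sides, so that a 2.27-fold difference separated them (log2 fold change 1.18, SE 0.21, limma adjusted p = 0.0105). Pigp, a subunit of the enzyme that starts GPI anchor synthesis, had 1138 to 2016 (median 1495) in the 8 heterozygous libraries, against 508 to 594 in the 3 WT libraries (log2 fold change 1.45, SE 0.25, limma adjusted p = 0.0102). Hmgn1, which binds nucleosomes, had 2045 to 2991 (median 2283) in the 8 heterozygous libraries, against 777 to 1193 in the 3 WT libraries (log2 fold change 1.20, SE 0.23, limma adjusted p = 0.013). Enho, which encodes the peptide adropin, had 414 to 1030 (median 597) in the 8 heterozygous libraries, against 97.1 to 238 in the 3 WT libraries (log2 fold change 2.02, SE 0.38, limma adjusted p = 0.0135).

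The remaining higher genes were expressed at low levels. Sdsl, a serine dehydratase-like gene, had normalized counts of 197, 224 and 273 in Csf1r_het, 139, 244 and 85.8 in Csf2_het and 131 and 121 in Dhet, against 14.1, 0.971 and 45.9 in WT (log2 fold change 3.89, SE 0.81, limma adjusted p = 0.02). Its log2 fold change was 2.64 without WT replicate 2, 4.93 without WT replicate 3, 2.98 with a pseudocount of 8 and 3.20 in edgeR. Sdsl did not pass without WT replicate 2, without WT replicate 1, in edgeR or with 21-month-old mice alone. Ccl24, the chemokine eotaxin-2, had 72.6, 250.4 and 224 in Csf1r_het, 129, 182 and 166 in Csf2_het and 301 and 52.3 in Dhet, against 24.4, 18.4 and 18.4 in WT. It was 7.11-fold higher (log2 fold change 2.83, SE 0.63, limma adjusted p = 0.029). Meig1, a gene of spermiogenesis, had 90.3 to 296 (median 150.3) in the 8 heterozygous libraries, against 19.5 to 43.0 in the 3 WT libraries (log2 fold change 2.37, SE 0.57, limma adjusted p = 0.04). Pxmp2, a peroxisomal membrane channel, had 47.9 to 248 (median 73.2) in the 8 heterozygous libraries, against 6.79 to 16.1 in the 3 WT libraries (log2 fold change 2.84, SE 0.69, limma adjusted p = 0.0412), and Dnm1, the neuronal dynamin, 33.7 to 233 (median 88.2) in the 8 heterozygous libraries, against 3.85 to 14.9 in the 3 WT libraries (log2 fold change 3.09, SE 0.77, limma adjusted p = 0.0456). Among 10 alternatives other than leaving out single libraries, 7 ended the call of Pxmp2, 6 that of Dnm1 and 5 that of Meig1, edgeR, no filter, 21-month-old mice alone and the replicate block among them for each gene. Their highest adjusted p in these was 0.0715, 0.1004 and 0.0777. With 1 library left out, 9 of 11 fits ended the calls of Pxmp2 and of Dnm1, 8 that of Meig1 and 7 that of Ccl24. Neuron markers stood at a sum of 527 to 3548 in the heterozygous libraries (median 1480) and 419 to 699 in the WT libraries, with 6 of 6 tested above 0 and 0 called, and their part in the rise of Dnm1 was not tested.

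The receptor for CSF-2 fell in common. Csf2rb, the shared signalling chain (ENSMUSG00000071713.4, chromosome 15, 78325990 to 78351000, forward strand), had normalized counts of 1203, 2595 and 1765 in Csf1r_het, 1306, 1425 and 1338 in Csf2_het and 1957 and 1701 in Dhet, against 5995, 5546 and 3670 in WT. All 8 heterozygous values lay below the WT values, 3.08-fold on average (log2 fold change -1.62, SE 0.27, limma adjusted p = 0.0101). The CSF-2-specific chain, Csf2ra (ENSMUSG00000059326.6, chromosome 19, 61224402 to 61228418, reverse strand), had 1195, 1094 and 1217 in Csf1r_het, 843, 1091 and 841 in Csf2_het and 962 and 1443 in Dhet, against 4333, 2585 and 2056 in WT. It fell 2.66-fold (log2 fold change -1.41, SE 0.27, limma adjusted p = 0.0144), and by genotype its log2 fold change was -1.28 in Csf1r_het, -1.63 in Csf2_het and -1.27 in Dhet. In the fit of the 4 groups Csf2rb and Csf2ra did not pass in Dhet (limma adjusted p = 0.136 and 0.222), nor Csf2ra in Csf1r_het (limma adjusted p = 0.0771). Each pooled call was lost in 1 of 11 fits with 1 library left out. The monocyte markers were lower too, and their part in the fall of both chains was not tested. Of 7 CSF ligands and receptors tested, Csf2rb and Csf2ra fell and 0 rose, with a median of -0.72, where 1.96% of all genes tested fell. This list and those below were chosen with earlier results of these data known. Their shares of calls beside the share of all genes are thus descriptions and not independent evidence. Csf2rb2, a close copy of Csf2rb that serves IL-3 in the mouse, did not pass (log2 fold change -0.50, SE 0.44, limma adjusted p = 0.613), and reads shared between the copies make their split uncertain. Il3ra, the IL-3-specific chain (-1.51, SE 0.77, limma adjusted p = 0.33), Csf3r, the G-CSF receptor (-0.29, SE 0.34, limma adjusted p = 0.72), and Csf1, a ligand of the Csf1r receptor (0.50, SE 0.44, limma adjusted p = 0.613), did not pass either. Limma called 1 of the 14 JAK-STAT5 and SOCS genes, edgeR 4 and DESeq2 6. Over all 13223 genes tested, limma called 357, edgeR 383 and DESeq2 971. The limma call, lower, was Il2rg, the common gamma chain of interleukin receptors (log2 fold change -1.40, SE 0.34, limma adjusted p = 0.041). The median of that list was -1.03. Further members, Jak2, Stat5b and Spi1, had no overlap with WT, as did 4.74% of all genes on the lower side, and did not pass in limma (log2 fold changes -1.17, -1.78 and -0.90).

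The phagocyte NADPH oxidase makes superoxide in myeloid cells. Of 8 genes 2 fell, against 1.96% of all genes tested, and 0 rose, with a median of -0.83. Cybb, its catalytic subunit (ENSMUSG00000015340.10, chromosome X, 9435252 to 9487771, reverse strand), had normalized counts of 9615, 9720 and 9996 in Csf1r_het, 4136, 5317 and 4712 in Csf2_het and 10235 and 8518 in Dhet, against 34969, 39791 and 26533 in WT. The Csf2_het values were the lowest, and the whole heterozygous side was 4.54-fold under WT (log2 fold change -2.18, SE 0.33, limma adjusted p = 0.00482). The summed level of the 8 oxidase genes was 45579 to 67787 in the heterozygous libraries and 96915 to 148477 in the WT libraries. The monocyte markers moved with this list, 8 of 8 of them below 0 with medians of -1.42 in Csf1r_het, -3.05 in Csf2_het and -1.31 in Dhet, and their part in the fall of oxidase genes, and of the receptor, complement and cytokine genes below, was not tested.

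Inhibitory and paired receptors of myeloid cells held 5 genes that fell among 18 tested, against 1.96% of all genes, with a median of -1.21 and 0 that rose. The list was chosen with earlier results of these data known, so this share is a description. Pirb (ENSMUSG00000058818.13, chromosome 7, 3711409 to 3720391, reverse strand), an inhibitory receptor for MHC class I, had normalized counts of 1530, 766 and 998 in Csf1r_het, 510.1, 651 and 631 in Csf2_het and 1446 and 2176 in Dhet, against 8367, 5874 and 5605 in WT. It fell 6.71-fold (log2 fold change -2.75, SE 0.40, limma adjusted p = 0.00468), with the 2 Dhet libraries among the higher heterozygous values. Clec4a1, a C-type lectin receptor of myeloid cells, had 1012, 883 and 573 in Csf1r_het, 556, 749.8 and 311 in Csf2_het and 364 and 575 in Dhet, against 6151, 6724 and 2490 in WT, and fell 7.99-fold (log2 fold change -3.00, SE 0.40, limma adjusted p = 0.00285). Pilra, which binds O-glycosylated proteins, averaged 1912 ± 585 in the heterozygous libraries and 5713 ± 579.5 in the WT libraries (SD, n = 8 and 3) (log2 fold change -1.63, SE 0.28, limma adjusted p = 0.0103). Clec4a3 (-2.15) and the activating partner Pilrb1 (-1.65) also fell. These families hold near copies, so the split of reads within them is uncertain.

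Of 15 complement genes and receptors 3 fell, against 1.96% of all genes: the integrin chains Itgb2 (log2 fold change -1.60, SE 0.29, limma adjusted p = 0.0117) and Itgax (log2 fold change -2.06, SE 0.52, limma adjusted p = 0.0483) and the central component C3 (log2 fold change -2.40, SE 0.49, limma adjusted p = 0.0191). C3 had normalized counts of 824, 560.1 and 1015 in Csf1r_het, 297, 417 and 222 in Csf2_het and 1384 and 621 in Dhet, against 3448, 4261 and 1858 in WT. All 8 values were under the lowest WT value, and the Csf2_het libraries were lowest. The median of the list was -0.20, with 6 genes above 0. Its summed level went the other way, with some overlap. The sum was 211584 to 416390 (median 363736) in the heterozygous libraries and 96319 to 239249 (median 191957) in WT. Among 17 inflammatory cytokine and chemokine genes 1 fell and 0 rose (1.96% and 0.741% of all genes), with a median of 0.26. That gene was Il1b, interleukin-1 beta, with 2033, 1665 and 1073 in Csf1r_het, 793, 407 and 1480 in Csf2_het and 838 and 918 in Dhet, against 4434, 7222 and 4857 in WT (log2 fold change -2.37, SE 0.40, limma adjusted p = 0.0102).

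Genes of lipid handling moved in both directions, with 4 that fell and 1 that rose among 28 tested (1.96% and 0.741% of all genes) and a median of -0.57. Plin2 (ENSMUSG00000028494.12, chromosome 4, 86648386 to 86670060, reverse strand), which coats lipid droplets, had normalized counts of 1027, 1052 and 919 in Csf1r_het, 899, 974 and 751 in Csf2_het and 908 and 1346 in Dhet, against 4347, 3800 and 5722 in WT. It fell 4.68-fold (log2 fold change -2.23, SE 0.24, limma adjusted p = 0.001), by nearly the same amount in each genotype, with -2.19 in Csf1r_het, -2.39 in Csf2_het and -2.04 in Dhet. Among the others that fell were the scavenger receptor gene Scarb1 (log2 fold change -1.98, SE 0.35, limma adjusted p = 0.0113) and the nuclear receptor gene Pparg (log2 fold change -2.10, SE 0.43, limma adjusted p = 0.0195). The gene that rose was Ch25h, cholesterol 25-hydroxylase, with 248 to 769.8 (median 376) in the 8 heterozygous libraries, against 56.3 to 159.9 in the 3 WT libraries (log2 fold change 1.91, SE 0.44, limma adjusted p = 0.032). TGF-beta signalling was represented by 13 genes, of which Tgfbi, for a secreted matrix protein, fell, with 1807, 1409 and 1646 in Csf1r_het, 497, 840.3 and 796 in Csf2_het and 1590 and 1451 in Dhet, against 11609, 13998 and 3836 in WT (log2 fold change -2.88, SE 0.44, limma adjusted p = 0.00482), and the median was -0.32. In the glycolysis list, too, a single gene fell, 1 of 19, the lactate exporter Slc16a3, with 196 to 972 (median 480.4) in the 8 heterozygous libraries, against 1054 to 2643 in the 3 WT libraries (log2 fold change -2.15, SE 0.48, limma adjusted p = 0.0295), and the median was -0.40. In the glutathione and antioxidant list of 21 genes, glutathione reductase, Gsr, fell (log2 fold change -2.16, SE 0.41, limma adjusted p = 0.0135) and the glutathione transferase Gstm2 rose (log2 fold change 2.03, SE 0.46, limma adjusted p = 0.0307), with a median of -0.06. Gstm2 did not pass without WT replicate 2, where its log2 fold change was 1.39. The counts of 1 in the TGF-beta, glycolysis and glutathione lists, beside 1.96% and 0.741% of all genes called lower and higher, say nothing about these lists. Gsr was 6843 in Dhet replicate 2 and at most 3090 in the other 7 heterozygous libraries.

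**Figure D3:**
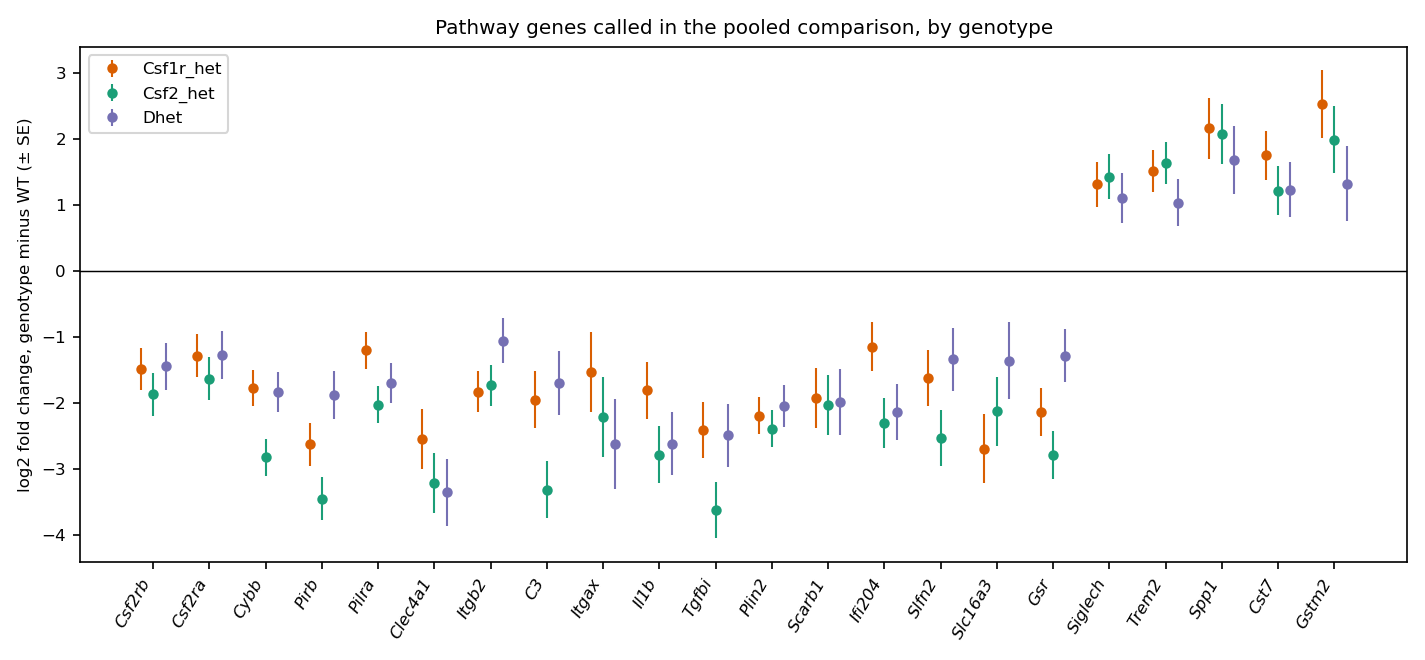
Log2 fold change of each heterozygous genotype minus WT, with its standard error from a limma fit of the 4 groups, for 22 pathway genes called in the pooled comparison. The 3 comparisons share the WT libraries. Plin2 lies between -2.39 and -2.04 in the 3 genotypes, while Cybb is at -2.83 in Csf2_het against -1.77 in Csf1r_het and -1.83 in Dhet.

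Of 25 genes of resting, homeostatic microglia 22 had a positive log2 fold change, and the median was 0.74. Limma called 1 of the 25, higher, where 0.741% of all genes rose, while DESeq2 called 7 and edgeR 1. Over all 13223 genes tested, DESeq2 called 421 higher and 550 lower, and edgeR 74 and 309. Of the 8 microglia markers limma called 1, DESeq2 5 and edgeR 1. The gene called by limma was Siglech (ENSMUSG00000051504.18, chromosome 7, 55768178 to 55778925, forward strand), a sialic acid-binding lectin, with normalized counts of 19145, 22008 and 24833 in Csf1r_het, 22315, 22303 and 26903 in Csf2_het and 19973 and 18008 in Dhet, against 10597, 5368 and 11975 in WT. It was 2.47-fold higher (log2 fold change 1.31, SE 0.28, limma adjusted p = 0.0238), and WT replicate 2 was the lowest of all libraries. P2ry12, the ADP receptor that steers microglial processes, had 34191, 43210 and 36606 in Csf1r_het, 48810, 69352 and 60852 in Csf2_het and 50949 and 54485 in Dhet, against 23927, 12809 and 26704 in WT, without overlap, and did not pass (log2 fold change 1.27, SE 0.34, limma adjusted p = 0.0623), although it did with the length trend removed (log2 fold change 1.22). The list's medians by genotype were 0.29 in Csf1r_het, 1.0 in Csf2_het and 0.64 in Dhet. The microglia marker sum given above, whose 8 genes all belong to this list, moved with it, and its part in these differences was not tested.

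Among the 24 genes of the disease-associated state, which microglia take on near plaques, 5 rose and 1 fell, against 0.741% and 1.96% of all genes, with a median of 0.54. Of the 24, 16 were above 0 and 8 below. Their summed level overlapped between the sides, at 566303 to 851188 in the heterozygous libraries and 691601 to 879342 in WT. The microglia markers had a median of 1.13, and their part in the genes that rose was not tested. Trem2, a lipid-sensing receptor, had normalized counts of 19029, 20381 and 25286 in Csf1r_het, 23063, 21832 and 25515 in Csf2_het and 19450 and 12258 in Dhet, against 8299, 5582 and 9161 in WT. It was 2.71-fold higher (log2 fold change 1.44, SE 0.28, limma adjusted p = 0.015), and Dhet replicate 2 was the lowest heterozygous library. Spp1, the secreted phosphoprotein osteopontin, had 1415, 2731 and 2896 in Csf1r_het, 2638, 2146 and 1666 in Csf2_het and 2081 and 1233 in Dhet, against 706, 237 and 742 in WT. It rose 4.03-fold (log2 fold change 2.01, SE 0.37, limma adjusted p = 0.0125). The lysosomal cysteine protease inhibitor gene Cst7 averaged 2347 ± 819 in the heterozygous libraries and 840.2 ± 181 in the WT libraries (SD, n = 8 and 3) (log2 fold change 1.42, SE 0.32, limma adjusted p = 0.0299), the tetraspanin gene Cd63 averaged 23036 ± 6673 in the heterozygous libraries and 9508 ± 2043 in the WT libraries (SD, n = 8 and 3) (log2 fold change 1.24, SE 0.30, limma adjusted p = 0.0424), and Ch25h belongs to this list too. Cst7 did not pass with the length trend removed (log2 fold change 1.21) or in 5 of the 11 fits with 1 library left out. Itgax, the integrin chain that marks such microglia and also dendritic cells, was the member that fell, and its call was lost in 4 of 10 alternatives (no filter, median centring, the replicate block and the length trend removed) and in 9 of 11 fits with 1 library left out.

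Promoters are shown for the called genes named by rule in these lists that held a searched motif near an annotated start. The 250 bases before the start site were read from RefSeq (GRCm38.p6), 5′ to 3′ on the gene's strand, for 9425 of the tested genes. The motifs, searched on both strands, were GAGGAAGT, a form of the PU.1 site, and TTCNNNGAA, the form of a STAT site, and a match to each can share letters, since both hold GAA. GAGGAAGT was in 5.45% of 202 promoters of genes that fell and in 4% of 75 of genes that rose, against 2.92% of all 9425. TTCNNNGAA was in 7.43% and 10.7% of these, against 6.03% of all. A match is a description of the letters and not a binding site. Of the named genes called, Pirb (chr7:3720383-3720632, reverse strand), which fell, and Spp1 (chr5:104434861-104435110, forward strand), which rose, held GAGGAAGT, and Siglech (chr7:55767934-55768183, forward strand), which rose, held TTCNNNGAA. Capitals mark the motif.
Pirb: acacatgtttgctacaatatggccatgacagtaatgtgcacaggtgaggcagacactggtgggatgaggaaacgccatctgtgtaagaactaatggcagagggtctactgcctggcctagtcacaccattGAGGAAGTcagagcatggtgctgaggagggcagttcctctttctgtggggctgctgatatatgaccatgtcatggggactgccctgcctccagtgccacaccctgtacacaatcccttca
Spp1: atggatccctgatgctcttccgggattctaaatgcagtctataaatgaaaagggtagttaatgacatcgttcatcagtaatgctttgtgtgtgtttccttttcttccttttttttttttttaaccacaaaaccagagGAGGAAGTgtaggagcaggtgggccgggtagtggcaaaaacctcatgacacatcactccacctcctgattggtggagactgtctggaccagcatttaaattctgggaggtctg
Siglech: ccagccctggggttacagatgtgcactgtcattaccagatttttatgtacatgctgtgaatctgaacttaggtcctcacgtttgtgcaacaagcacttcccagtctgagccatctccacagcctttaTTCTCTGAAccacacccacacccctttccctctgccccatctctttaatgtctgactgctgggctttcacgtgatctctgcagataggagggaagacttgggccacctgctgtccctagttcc

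Interferon response genes lay mostly lower, with 23 of 28 below 0, 3 that fell and 0 that rose, and a median of -1.12, where 1.96% of all genes fell. The monocyte markers moved with this list: Csf2_het had the lowest median in both, -1.47 and -3.05, and WT replicate 2 the highest sum in both, 136411 and 201730 normalized counts. Their part in the interferon genes was not tested. Ifi204, a sensor of the interferon-inducible p200 family, had normalized counts of 959.7, 1070 and 926 in Csf1r_het, 384, 541 and 409 in Csf2_het and 562 and 436 in Dhet, against 2271, 3546 and 1278 in WT (log2 fold change -1.83, SE 0.40, limma adjusted p = 0.025). Slfn2, a schlafen gene, had 1459 to 3744 (median 2727) in the 8 heterozygous libraries, against 5339 to 20473 in the 3 WT libraries (log2 fold change -1.89, SE 0.42, limma adjusted p = 0.0271), and Ifi207, a near copy in the same family, overlapped WT with 121 to 904 (median 411) in the 8 heterozygous libraries, against 841 to 5113 in the 3 WT libraries (log2 fold change -2.37, SE 0.58, limma adjusted p = 0.0424). WT replicate 2 held the highest value of all 3 genes, and Ifi207 did not pass with median centring, the replicate block or the length trend removed, or in 6 of 11 fits with 1 library left out. Its log2 fold change was -1.72 without WT replicate 2 and -3.03 without WT replicate 3. Among 12 MHC class I genes 11 were below 0, 4 had no overlap with WT, against 4.74% of all genes on the lower side, and 0 were called by limma. At an unadjusted p under 0.05 limma had 7, while DESeq2 called 3 and edgeR 0. Over all 13223 genes tested, limma had 2314 at that p and DESeq2 called 971. The median was -0.86, and the member with the lowest p was the peptide transporter Tap1 (log2 fold change -1.51, SE 0.42, limma adjusted p = 0.0708). Among 13 MHC class II genes 0 were called by limma, by DESeq2 or by edgeR, and 4 had an unadjusted limma p under 0.05, with a median of -0.35. The member with the lowest p was H2-Oa (log2 fold change 0.83, SE 0.29, limma adjusted p = 0.14).

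**Figure D4:**
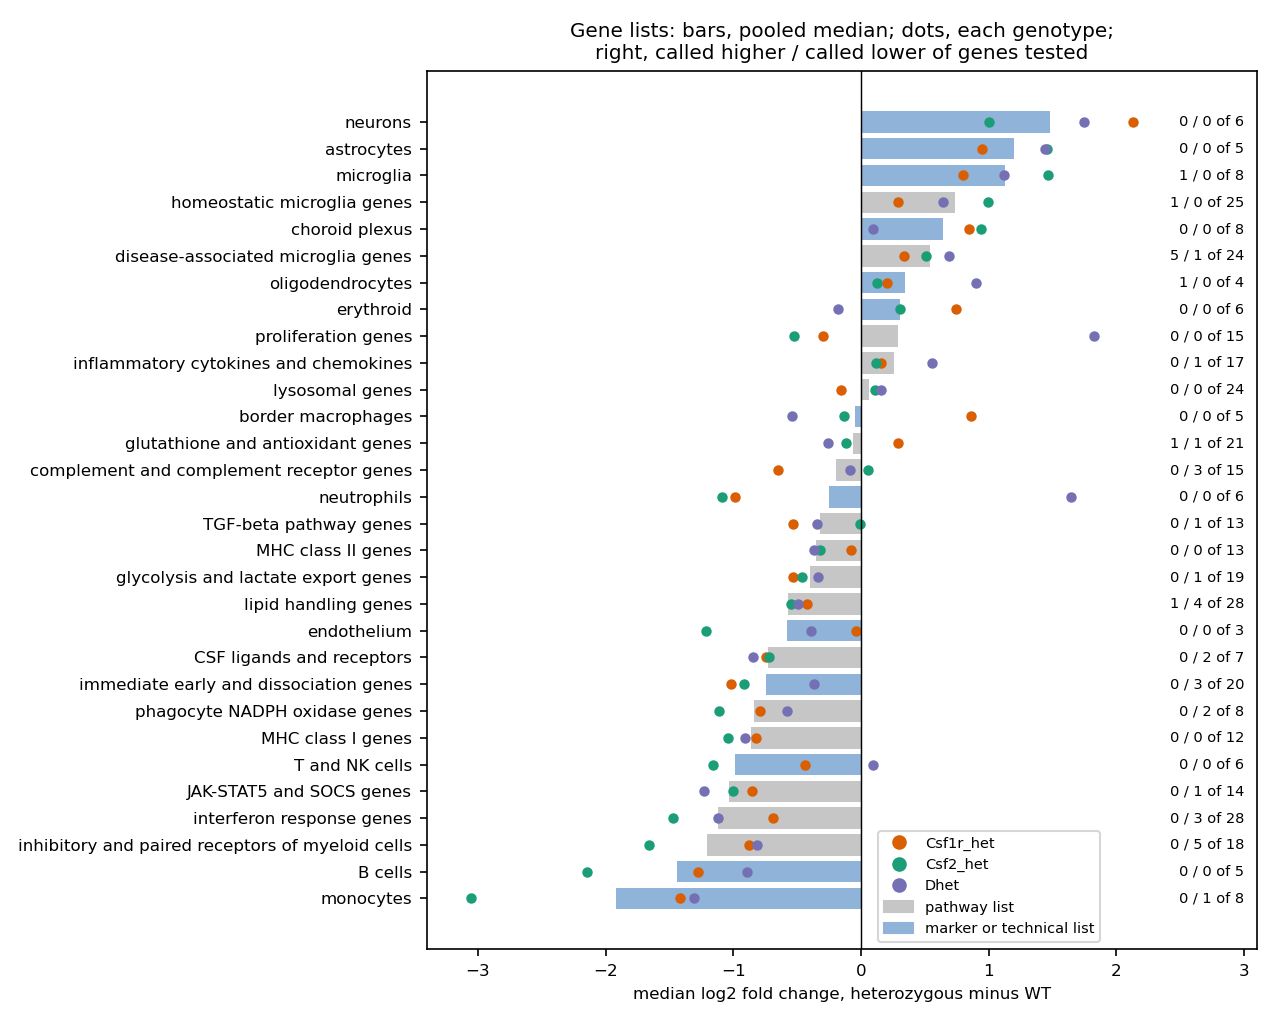
Median log2 fold change, heterozygous minus WT, of each gene list (bars) and of each genotype (dots), with the genes called higher and lower of those tested at the right. The monocyte list has the lowest median, -1.92, and the neuron list the highest, 1.48, against -0.07 over all genes tested.

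The other lists held few calls. Of 24 lysosomal genes and 15 proliferation genes 0 were called by limma, with medians of 0.06 and 0.29. In each list limma had 2 genes at an unadjusted p under 0.05, DESeq2 called 1 and edgeR 0. The members with the lowest p were Ctsl, cathepsin L (0.80, SE 0.28, limma adjusted p = 0.151), and Stmn1, stathmin (1.39, SE 0.39, limma adjusted p = 0.0718). Among 20 genes known to respond to stress of tissue handling, 3 fell, against 1.96% of all genes: Klf2 (log2 fold change -2.63, SE 0.38, limma adjusted p = 0.00459), Nr4a1 (log2 fold change -2.67, SE 0.45, limma adjusted p = 0.0102) and Ier2 (log2 fold change -1.41, SE 0.35, limma adjusted p = 0.0426), with a median of -0.75. Of the 20, 18 were below 0, and 5 had no overlap with WT on the lower side, against 4.74% of all genes. At an unadjusted p under 0.05 limma had 9 of the 20, against 2314 of all 13223 genes. DESeq2 called 5 and edgeR 4, against 971 and 383 of all genes. The part of tissue handling in the difference from WT was not tested. The most abundant members of this list, Zfp36 and Btg2, did not pass (-0.40 and -0.65). Among monocyte markers 8 of 8 were below 0, with a median of -1.92, and 1 fell, where 1.96% of all genes did, the receptor gene Gpr141 (log2 fold change -2.16, SE 0.53, limma adjusted p = 0.0421). Their most abundant members, Chil3 (-1.18) and Plac8 (-1.64), and the chemokine receptor Ccr2 (-2.09, SE 0.66, limma adjusted p = 0.112), did not pass. In the oligodendrocyte list, whose sum was 3356 to 8906 in the heterozygous libraries and 4754 to 6335 in WT, 1 of 4 genes tested rose, while Mbp and Cnp did not pass (-0.18 and -0.50).

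Marker lists of other cells had 0 calls in limma, at most 2 genes each at an unadjusted p under 0.05, and summed levels that overlapped between the sides. DESeq2 called 1 gene among them, in the choroid plexus list, and edgeR 0. Median log2 fold changes were -1.44 for 5 B cell genes (led by Ighm and Cd79a), -0.99 for 6 T and NK cell genes (Nkg7 and Cd3d), -0.25 for 6 neutrophil genes (S100a8 and S100a9), -0.04 for 5 border macrophage genes (Clec12a and F13a1) and -0.58 for 3 endothelial genes (Pecam1 and Flt1). They were 1.48 for 6 neuron genes (Snap25 and Gad1), 1.20 for 5 astrocyte genes (Aldoc and Slc1a2), 0.64 for 8 choroid plexus genes (Ttr and Enpp2) and 0.31 for 6 erythroid genes (Hba-a2 and Hbb-bs). The genes in brackets are the 2 most abundant of each list and can lie far from its median. Clec12a was at -1.18, F13a1 at -2.19 and Nkg7 at 0.31. The choroid plexus sum was 285057 to 1586822 in the heterozygous libraries and 432795 to 698593 in the WT libraries.

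A few genes did not share a response. The F test over the genotypes called 5 genes, among them Rps3a2, Rps3a3, Gm28438 and Pygl, and 0 of the 5 passed in the pooled comparison. Rps3a2, annotated as a processed pseudogene and a near copy of the ribosomal protein gene Rps3a1, had normalized counts of 7.92, 1.48 and 9.48 in Csf1r_het, 1292, 1094 and 1463 in Csf2_het and 1535 and 1378 in Dhet, against 8.99, 8.73 and 1.15 in WT. The Csf2_het and Dhet libraries were thus high and the Csf1r_het libraries at the WT level (adjusted p = 0.00977 of the limma F test). Rps3a3, also annotated as a processed pseudogene, had the same arrangement, with 1.32, 0 and 5.26 in Csf1r_het, 538, 442 and 828 in Csf2_het and 576 and 477 in Dhet, against 1.93, 3.88 and 0 in WT (adjusted p = 0.0194 of the limma F test). Gm28438, annotated as an unprocessed pseudogene, had 14.5, 23.7 and 12.6 in Csf1r_het, 62327, 14513 and 1608 in Csf2_het and 23295 and 3964 in Dhet, against 5.78, 131 and 11.5 in WT (adjusted p = 0.0194 of the limma F test). Pygl, glycogen phosphorylase, had 784, 867 and 1051 in Csf1r_het, 449, 279 and 188 in Csf2_het and 2760 and 2262 in Dhet, against 3080, 3362 and 3867 in WT (adjusted p = 0.0194), with Csf2_het lowest and Dhet nearest to WT. All 8 heterozygous values of Pygl lay below the 3 WT values. By genotype its log2 fold change was -1.94 in Csf1r_het, -3.57 in Csf2_het and -0.45 in Dhet. In the fit of the 4 groups it did not pass in Dhet (SE 0.38, limma adjusted p = 0.704).

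The number of common calls rested on single WT libraries. Limma called 1 gene higher and 10 lower without WT replicate 1, and 9 higher and 85 lower without WT replicate 2, against 146 and 256 without WT replicate 3. Before adjustment, 1665 genes had a p under 0.05 in the fit that left out WT replicate 1, against 2314 with all libraries. Of the 46 called genes named by rule, 7 passed without WT replicate 1, 23 without WT replicate 2 and 35 to 46 without any other library. All 357 called genes kept their direction in each of the 11 fits. For 329 of them the sides did not overlap, so leaving out 1 library could not reverse their direction. The calls that held in all 11 were 10 genes that fell: Gcnt2, Plin2, Flna, Myo1g, Adgre5, Clec4a1, Cd300e, Cd244, Ptpn1 and Themis2. Cd244 is a receptor of the SLAM family, with normalized counts of 299 to 828 (median 520.2) in the 8 heterozygous libraries, against 2293 to 3157 in the 3 WT libraries (log2 fold change -2.36, SE 0.31, limma adjusted p = 0.00285). Ptpn1, a tyrosine phosphatase that acts on JAK2, had 3245, 2528 and 2599 in Csf1r_het, 2454, 2979 and 2495 in Csf2_het and 3762 and 2601 in Dhet, against 9636, 9852 and 7176 in WT (log2 fold change -1.65, SE 0.22, limma adjusted p = 0.00285). Themis2, a signalling adaptor of macrophages and B cells, had 665 to 1356 (median 793) in the 8 heterozygous libraries, against 2785 to 5302 in the 3 WT libraries (log2 fold change -2.22, SE 0.29, limma adjusted p = 0.00285). Leaving out Csf1r_het replicate 2, the library rich in haemoglobin transcripts, gave 117 higher and 331 lower genes. Leaving out Dhet replicate 2, the library with little Xist, gave 106 and 286. With libraries from 21-month-old mice alone, 81 were higher and 260 lower.

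**Figure D5:**
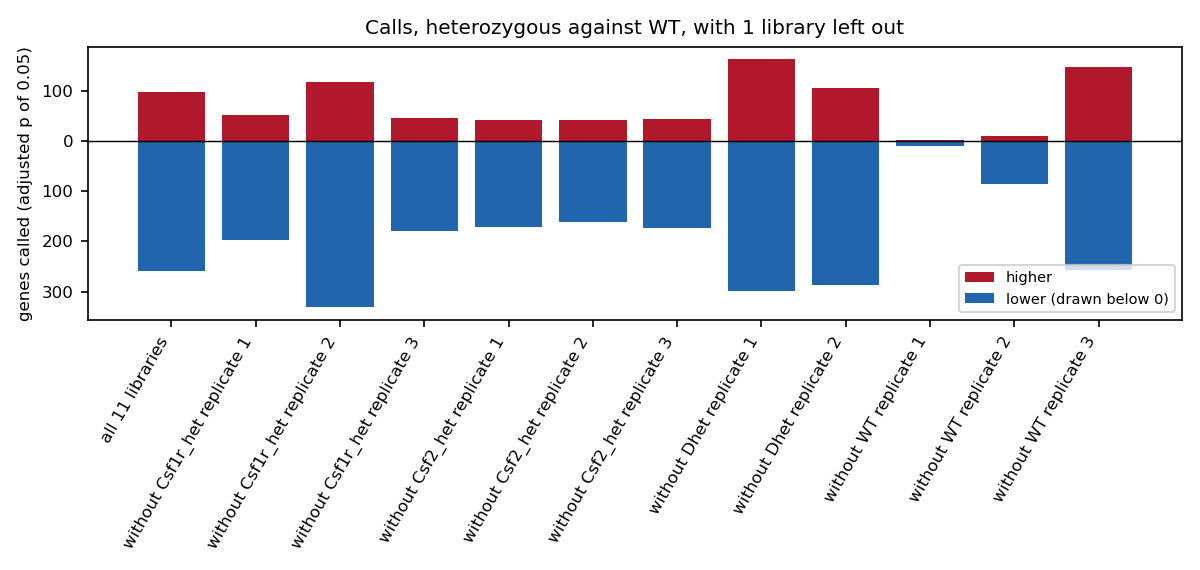
Genes called by limma with all 11 libraries and with each library left out, with those higher in the heterozygous libraries drawn upward and those lower drawn downward. The counts are 98 and 259 with all libraries and drop to 1 and 10 without WT replicate 1.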

How the data were processed

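The authors deposited 1 table of normalized counts for 14739 genes in 11 libraries, a signal made from read counts divided by size factors. Per the submitters' processing notes, kallisto 0.43.1, DESeq2 and the mm10 build were used; the annotation and any filter were not given in the sources used here. All values were whole multiples, within 0.02 of a read, of what 1 read is worth in the library, so reads were recovered for the count tests. The effects were estimated with limma 3.58.1 (R 4.3.3, trend, two-sided) on log2(normalized count + 1) for genes with a mean of at least 10, and p-values were adjusted by the Benjamini-Hochberg method over 13223 genes at 0.05. Fold changes on that scale depend on the pseudocount for low genes. The comparison joined the 8 heterozygous libraries as 1 group; a fit of the 4 groups gave values per genotype and an F test among the heterozygous genotypes. Genotypes weighted alike, pseudocount 8, no filter, a mean of at least 50, median centring, edgeR 4.0.16, DESeq2 1.42.0, 21-month-old mice alone, the replicate block, each library left out and, added after the data were seen, removal of a lowess trend (span 0.5) on exonic length were tried.

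On simulated counts for these 13223 genes, the pooled fit recovered 4 of 67 genes changed by 1 on the log2 scale, 23 of 67 by 2 and 48 of 66 by 4, with 7 false calls among 13023. Genes were drawn independently, with the same change in every heterozygous library. Shifts shared by many genes, outlying libraries and differences between genotypes were not simulated, so these counts do not give the error rate in the real data. Members and gene lists were chosen with earlier results of these data known. Genes were named by rule: the 10 lower and 10 higher called genes with the widest gap (mean of at least 50; 5 predicted genes left out), the CSF genes, the leading called members of each list (or the member with the lowest p), and the 2 most abundant markers. Other genes named, among them the remaining called members of lists, P2ry12, Jak2, Stat5b, Spi1, Ccr2, the genes of the F test and those called with every library left out, were chosen after their values were seen. Genes with near copies share reads, which makes their split uncertain. Positions are those of GENCODE vM21, and Lilrb4a, whose symbol has 2 entries, was not used in the lists. Some genes that the rules name are not reported here.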

Additional observations from a re-analysis of the deposited data

Results flagged for a closer look

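In 6 of the 88 named genes, a heterozygous library lay farther from the other 7 than Dixon's 95% critical value of 0.526 for 8 values allows, on the log2 scale. Chance gives about 1 in 20 such groups. Dpep2 had its lowest heterozygous value, 35.3 normalized counts, in Dhet replicate 1. Il3ra had its highest, 275.6, in Csf1r_het replicate 2, the library with most haemoglobin transcript. Dhet replicate 2 held the other 4 values: the lowest of Trem2 (12258), the lowest of Ctsl (12019), the lowest of Xist (4.02) and the highest of Eif2s3y (1151), a gene of the Y chromosome.

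The F test over Csf1r_het, Csf2_het and Dhet marked 5 genes whose difference from WT varied with genotype. The limma adjusted p was 0.00977 for Rps3a2 and 0.0194 for each of Rps3a3, Pygl and Gm28438. Rps3a2 and Rps3a3, annotated as processed pseudogenes, are near copies of an abundant ribosomal protein gene, and how reads were split between the copies was not tested.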

How the results depend on the processing

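All 357 called genes kept their direction in every alternative in which they were tested. This was largely fixed in advance, since they were picked from the same values and the sides did not overlap in 329 of them. Limma called 98 genes higher and 259 lower, while DESeq2 on recovered reads called 421 and 550. With libraries left out in turn, the calls were 1 to 162 higher and 10 to 331 lower, lowest without WT replicate 1. The replicate number did not pair the libraries (15 pairs of same-numbered libraries correlated between -0.21 and 0.062), and with it as a block 58 genes were higher and 186 lower. Genes without overlap, 274 higher and 627 lower, became 663 and 1074 with 21-month-old mice alone, and 298 to 694 and 650 to 1186 with libraries left out, since fewer libraries make separation easier. The F test over the genotypes, with 5 calls, gave 0 with 21-month-old mice alone (1020 at an unadjusted p under 0.05), 0 with the replicate block (854), 126 by DESeq2, 4 by edgeR and 0 to 72 with libraries left out, with 72 without Dhet replicate 2 and 12 without WT replicate 2; with a Dhet library left out, the lone one was assumed to vary like the other groups. The cause was not tested. Weighting genotypes alike, a pseudocount of 8, no filter, a mean of at least 50, centring on the median, edgeR and 21-month-old mice alone each left both counts of calls within 1.5 times. Of reads per library, 21037819 was the lowest, and genes with a mean under 10 normalized counts, 1516 in all, were not tested.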
